A study of Mus musculus with 12 samples.

Results

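The matrix metalloproteinases (MMPs), the ADAMTS proteases, the ADAMTS-like proteins and the tissue inhibitors of metalloproteinases (TIMPs) were followed through the annulus fibrosus (AF), the fibrous outer ring of the intervertebral disc, and the nucleus pulposus (NP), its gelatinous core. Genes were taken by their symbol in the array's gene table: every Mmp with a number, every numbered Adamts and Adamtsl, and Timp1 to Timp4. This gave 48 of the 19505 genes with a symbol, each with a single transcript cluster, the unit for which the array gives 1 signal. There were 4 groups of 3 arrays, all from lumbar discs (L1 to S1) of 12-month-old mice on the C57BL/6 background: NP of TonEBP +/- mice, NP of wild-type (WT) mice, AF of TonEBP +/- mice and AF of WT mice. TonEBP +/- mice are haploinsufficient for TonEBP, the transcription factor that lets cells adapt to high osmolarity, which is encoded by Nfat5. Each sample was tissue pooled within 1 animal, and the labels name no other allele, treatment, batch or sex and do not tie an NP sample to an AF sample of the same mouse. The series asks how partial loss of TonEBP bears on matrix and other genes of the ageing disc, and RNA was measured on Clariom S Mouse arrays as log2 signals.

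MMPs are zinc-dependent proteases, made as inactive precursors, that cut collagens, gelatin and other matrix proteins outside the cell or, for the membrane-bound members, at its surface. ADAMTS proteases are secreted relatives; some cut the proteoglycans aggrecan and versican, others trim procollagen, and the ADAMTS-like proteins share their outer domains but carry no protease domain. TIMPs bind the active site of MMPs and, in the case of Timp3, also of aggrecan-cutting ADAMTS proteases. In the disc, aggrecan keeps the NP hydrated and collagen fibres give the AF its strength, so the balance of these proteases and inhibitors is a standard measure of matrix turnover.

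In a run of 9 MMP genes on mouse chromosome 9 the first 7 lie side by side with no other protein-coding gene between them in RefSeq (GRCm38.p6), in the order Mmp13, Mmp12, Mmp1b, Mmp3, Mmp1a, Mmp10 and Mmp8, and Mmp20 and Mmp7 follow after 1 other gene. These neighbours differed in whether they were detected and in how they varied, so the 250 bases before the annotated start of Mmp13, Mmp8 and Mmp3 are shown, together with those of Timp2 and Timp3, the inhibitors with the largest differences between the tissues. Sequences are RefSeq's, GRCm38.p6, 5′ to 3′ on the gene's strand. Capitals mark the letters of an AP-1 site (TGAGTCA, searched on both strands), a TATA box (TATAAA, on the gene's strand) and a GC box (GGGCGG, on both strands). The windows are chr9:7272264-7272513 on the plus strand for Mmp13, chr9:7558179-7558428 on the plus strand for Mmp8, chr9:7445572-7445821 on the plus strand for Mmp3, chr11:118355412-118355661 on the minus strand for Timp2 and chr10:86300162-86300411 on the plus strand for Timp3.
Mmp13: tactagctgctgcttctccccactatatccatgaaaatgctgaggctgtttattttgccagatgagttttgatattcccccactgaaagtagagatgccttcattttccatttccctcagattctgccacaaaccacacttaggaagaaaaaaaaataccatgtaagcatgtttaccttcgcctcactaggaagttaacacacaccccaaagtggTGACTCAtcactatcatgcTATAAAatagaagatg
Mmp8: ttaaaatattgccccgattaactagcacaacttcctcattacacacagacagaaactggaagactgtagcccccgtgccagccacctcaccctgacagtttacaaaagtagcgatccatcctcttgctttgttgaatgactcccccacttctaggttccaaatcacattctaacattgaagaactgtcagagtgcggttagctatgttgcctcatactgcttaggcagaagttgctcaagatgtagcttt
Mmp3: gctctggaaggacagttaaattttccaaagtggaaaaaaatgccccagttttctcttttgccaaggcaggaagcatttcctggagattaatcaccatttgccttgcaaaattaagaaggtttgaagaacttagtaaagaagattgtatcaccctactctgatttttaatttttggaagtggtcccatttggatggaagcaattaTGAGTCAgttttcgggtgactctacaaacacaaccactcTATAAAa
Timp2: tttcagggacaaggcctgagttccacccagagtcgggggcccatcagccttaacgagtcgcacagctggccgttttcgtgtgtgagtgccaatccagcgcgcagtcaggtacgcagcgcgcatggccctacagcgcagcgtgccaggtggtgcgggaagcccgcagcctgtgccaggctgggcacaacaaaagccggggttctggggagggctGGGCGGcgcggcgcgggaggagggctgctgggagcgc
Timp3: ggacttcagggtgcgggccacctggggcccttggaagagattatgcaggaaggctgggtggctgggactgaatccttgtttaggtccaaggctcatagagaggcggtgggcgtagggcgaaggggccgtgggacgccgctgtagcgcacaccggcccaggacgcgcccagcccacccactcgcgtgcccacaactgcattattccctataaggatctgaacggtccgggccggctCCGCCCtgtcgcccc
In Mmp13 the AP-1 letters begin 35 bases and the TATA letters 16 bases before the start, and in Mmp3 these distances are 46 and 7 bases. A further word, the TGGAAA core of sites for TonEBP and its NFAT relatives, was searched on both strands and is not in capitals. It stood before 4 of 33 genes of the family, Mmp13, Mmp3, Mmp7 and Adamts17 (12.1%, against 18.6% of 32851 promoters). The Mmp8 window holds none of the 4 words, and those of Timp2 and Timp3 hold 1 GC box each and neither of the others. A promoter was given for 33 of the 48 genes. A gene of the family was counted where any of its promoters held the letters, while the shares of all are of single promoters. The shares set side by side here thus have unlike units. The AP-1 letters stood in 7 of the 33 (Mmp10, Mmp12, Mmp13, Mmp1a, Mmp1b, Mmp3 and Mmp7), or 21.2%, against 4.46% of 32851 promoters of all genes, and all 7 belong to the chromosome 9 neighbours. The TATA letters stood in 10 of the 33 (30.3%, against 7.59% of all) and the GC box in 18 (54.5%, against 32.7%), none of these 18 among the chromosome 9 neighbours. These matches describe letters only. Genes with the same letters differed in their levels, since Mmp13 was above background on every AF array and Mmp3 on no array.

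Tissue identity and the state of the arrays were read first. NP and notochord markers (12 measured) averaged 11.7 to 11.9 log2 on the NP arrays of TonEBP +/- mice and 11.8 to 11.9 on those of WT mice, against 7.96 to 8.26 on the AF arrays of TonEBP +/- mice and 8.37 to 9.47 on those of WT mice. WT AF array 1 stood apart with the 9.47, the other WT AF arrays being at 8.47 and 8.37. Without that array 5 genes of the family were called by genotype in AF, against 6 with it. The share of all clusters called was 2.09% without it, against 6.07% with it. AF and tendon markers (10 measured) averaged 7.12 to 7.57 and 7.36 to 7.69 on the NP arrays of TonEBP +/- and WT mice, against 10.5 to 10.8 and 10.0 to 10.4 on the AF arrays. Of these, 6 were called lower in NP of each genotype, but 3 in TonEBP +/- and 2 in WT discs were called higher. Among them Fmod had 18.27, 18.65 and 18.08 log2 in TonEBP +/- NP, against 13.08, 12.00 and 12.55 in TonEBP +/- AF. Of the NP list 9 were called higher in NP of each genotype and 1 lower. On the deposited scale, before array medians were subtracted for the calls, Noto had 7.57, 7.69 and 7.82 log2 in WT NP, against 8.24, 8.70 and 8.06 in WT AF. These deposited signals do not show which gene was called lower. The tendon regulators Scx and Mkx and the tendon proteins Tnmd and Kera were above background on no array, as were Foxa1, Foxa2 and Car12 of the NP list. Nfat5 was not lower in TonEBP +/- samples: it read 9.06, 9.62 and 9.09 log2 in TonEBP +/- NP and 9.12, 8.80 and 8.34 in WT NP, and 8.91, 8.94 and 8.74 in TonEBP +/- AF and 7.70, 8.69 and 9.93 in WT AF. The part of Nfat5 that its probes cover is not known here, so this level does not check the genotype and the groups are called by their labels. Array medians were 6.82 to 6.87 log2 in NP and 7.43 to 7.64 in AF, and TonEBP +/- AF array 3 had the widest spread of all AF arrays (interquartile range 3.11 log2, against 2.36 to 2.66 on the other 5).

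A large share of the family could not be told from background. A gene was taken as above background on an array where its signal passed a cutoff, the 95th percentile of the 23 background probe sets on the same array. The cutoff lay at 7.11 to 7.33 log2 in NP and 7.73 to 7.98 in AF. On this reading 6 genes (12.5%) were above background on all 12 arrays: the neutrophil collagenase Mmp8, the inhibitors Timp2 and Timp3, the versican- and aggrecan-cutting protease Adamts1, and Adamtsl4 and Adamtsl5. Of all 22206 clusters tested, 28.1% were. Another 24 (50%, against 37.5% of all clusters) were above it on no array, and 18 on some arrays. Per group, the genes above background on 3 of 3 arrays numbered 12 in TonEBP +/- NP, 11 in WT NP, 13 in TonEBP +/- AF and 14 in WT AF, where the share of all clusters was 42%, 41.6%, 36.1% and 39%.

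The 24 genes at background include most of the specialised members. Among the secreted MMPs they were the interstitial collagenases Mmp1a and Mmp1b, the stromelysins Mmp3, Mmp10 and Mmp11, the matrilysin Mmp7, Mmp21 and the epilysin Mmp28. Among the membrane-bound MMPs they were Mmp16, Mmp17, Mmp23 and Mmp24. Of the 7 aggrecan- or versican-cutting ADAMTS genes, 4 were at background on every array, Adamts4, Adamts5, Adamts8 and Adamts15, so the aggrecanases most often named in disc degeneration, Adamts4 and Adamts5, were not above background in either tissue. The procollagen-trimming Adamts3, 6 of 9 other ADAMTS genes (Adamts6, Adamts13, Adamts16, Adamts17, Adamts18 and Adamts19) and Adamtsl2 complete the set. The background probe sets span 2.95 to 8.70 log2 and the base composition of the clusters is not known here, so the level is a strict one. Against the median of the background probe sets instead of their 95th percentile, 12 genes were above on all 12 arrays and 13 on none. A gene below the level has only a bound, and its signal is not read as an absence of RNA.

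**Figure D1:**
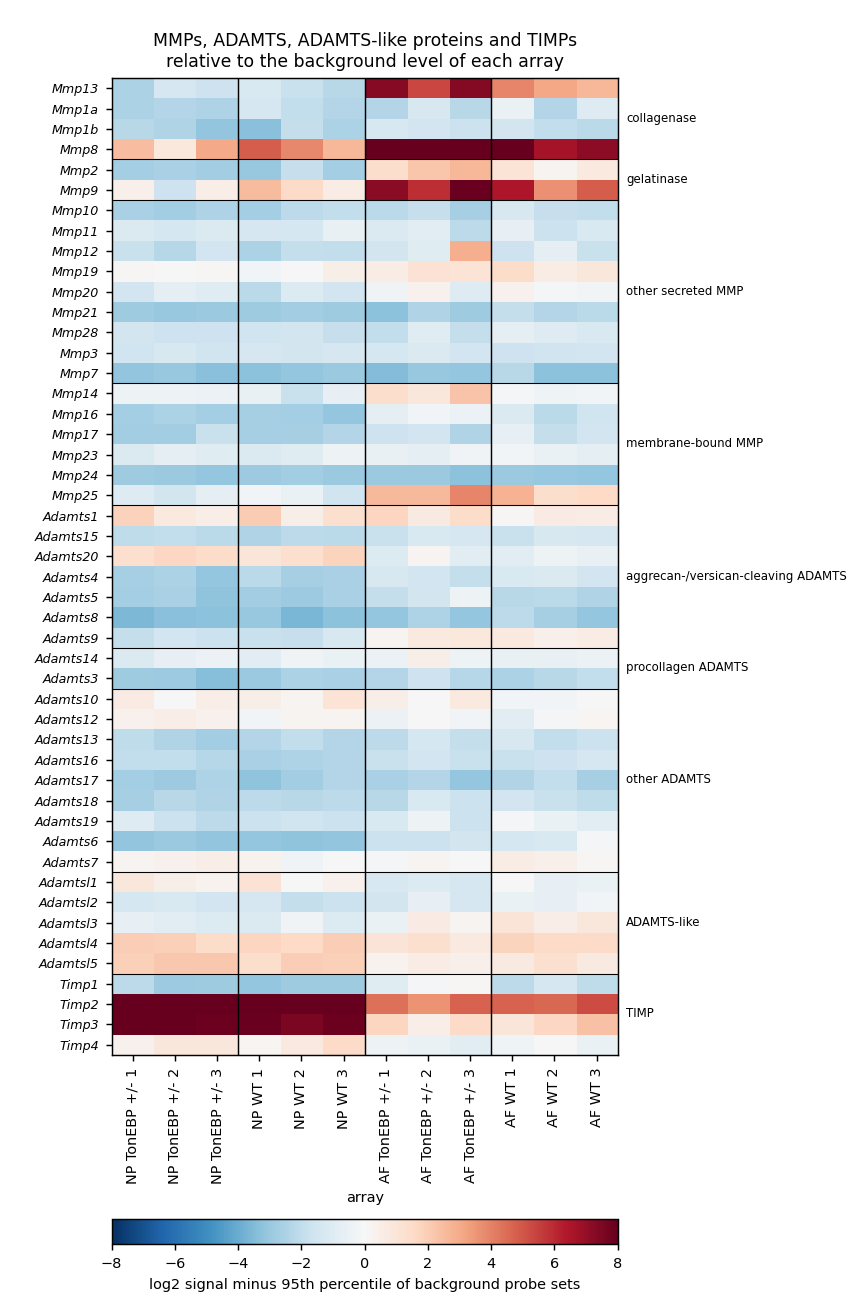
Log2 signal of each of the 48 genes (rows, by class) on each of the 12 arrays (columns), minus the 95th percentile of the background probe sets of that array; the colour scale ends at 8 log2 on either side. Red marks signals above background, as for Timp2 and Timp3 in NP and Mmp8, Mmp9 and Mmp13 in AF, and 24 rows stay at or below it on every array.

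NP and AF were set against each other within each genotype, to ask which proteases and inhibitors mark each compartment. The inhibitors Timp3 and Timp2 were 74.4-fold and 23.9-fold higher in NP than in AF of WT mice. Mmp8 and Mmp9 were 11.0-fold and 10.2-fold lower in NP, and Mmp13 was at least 8.56-fold lower. Differences between the tissues are given after each array's median over all clusters was subtracted, since it is not known here which arrays the authors normalized together, and the levels quoted are the deposited log2 signals. A gene was called at an adjusted p under 0.05 in limma's moderated test, with Benjamini-Hochberg adjustment over all 22206 clusters. Where a group had 0 of 3 arrays above background, the mean cutoff of its arrays took the place of its signal, and the fold is written as at least so much. In bulk tissue such as this, fewer cells of a type and less RNA per cell cannot be told apart.

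In WT discs 26 of the 48 genes were called between NP and AF (54.2%, against 65% of all clusters), 7 higher in NP (14.6%, against 33.7%) and 19 lower (39.6%, against 31.3%). In TonEBP +/- discs 29 were called (60.4%, against 56.2% of all clusters), 7 higher (14.6%, against 30.9%) and 22 lower (45.8%, against 25.3%). The tissues thus differed for about as large a share of this family as of all genes, with fewer members on the NP side. Many calls on the AF side were of dim genes. Adamts4, Adamts6, Adamts15 and Mmp16 were called lower in NP of each genotype though above background on no array. With dim clusters left out, 15 calls remained in WT discs and 16 in TonEBP +/- discs. Of the 11508 clusters left, 80.2% were called in WT and 70.9% in TonEBP +/- discs. The 11 and 13 calls then lost were all of genes lower in NP. The median difference of the 48 genes was -0.56 log2 in TonEBP +/- and -0.49 in WT, that of all clusters -0.06 and -0.10. The split moved with scaling. On the values as deposited, where the median of all clusters itself lay at -0.75 log2 in TonEBP +/- and -0.84 in WT, 5 genes were higher and 38 lower in TonEBP +/- discs, and 3 higher and 34 lower in WT discs. Calls were then made for 74.3% of all clusters in TonEBP +/- and 78.3% in WT discs. After quantile normalization of all 12 arrays it was 6 higher and 16 lower in TonEBP +/- discs, and 7 higher and 15 lower in WT discs. The shares of all clusters called were 48.9% and 54.5%.

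Timp3 and Timp2 had the largest differences on the NP side, while Timp1 lay on the AF side. Timp3, which binds to the matrix, had 15.29, 15.20 and 15.08 log2 in TonEBP +/- NP, against 9.69, 8.36 and 9.45 in TonEBP +/- AF, and 15.26, 14.74 and 14.94 in WT NP, against 8.73, 9.60 and 10.18 in WT AF. Timp2, which blocks MMPs and also takes part in the activation of Mmp2, had 16.70, 16.56 and 16.63 log2 in TonEBP +/- NP, against 12.41, 11.41 and 12.64 in TonEBP +/- AF, and 16.49, 16.43 and 16.67 in WT NP, against 12.47, 12.52 and 13.07 in WT AF. The NP and AF arrays lay far apart for both genes, with no overlap. The difference for Timp3 was 6.71 log2 (SE 0.37; 105-fold, adjusted p = 6.456e-10) in TonEBP +/- and 6.22 (SE 0.37; 74.4-fold, adjusted p = 1.854e-09) in WT discs, and for Timp2 it was 5.17 (SE 0.31; 36.0-fold) and 4.58 (SE 0.31; 23.9-fold). These sizes moved with scaling: after quantile normalization the Timp3 difference was 5.71 log2 in TonEBP +/- and 4.95 in WT discs, and that of Timp2 was 3.84 and 3.00, all still called. Timp4 had 7.51, 8.10 and 8.15 log2 in TonEBP +/- NP, against 7.59, 7.31 and 7.05 in TonEBP +/- AF, and 7.50, 7.98 and 8.65 in WT NP, against 7.36, 7.95 and 7.33 in WT AF. Its raw signals overlapped between the tissues in both genotypes. After centring it was higher in NP, by at least 1.62-fold in TonEBP +/- discs and 2.36-fold in WT discs, though on the values as deposited it did not pass in either genotype (adjusted p = 0.0827 and 0.141). Timp1, the inhibitor usually induced by cytokines and growth factors, had 5.04, 4.30 and 4.39 log2 in TonEBP +/- NP, against 7.04, 7.75 and 8.04 in TonEBP +/- AF, and 4.26, 4.33 and 4.25 in WT NP, against 5.64, 6.56 and 5.82 in WT AF. It was called lower in NP in both genotypes, but 11 of its 12 signals were at background and no fold is given.

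Few proteases were higher in NP. Adamts20, a versican-cutting protease, read 8.51, 8.86 and 8.70 log2 in TonEBP +/- NP, against 6.86, 8.04 and 7.06 in TonEBP +/- AF, and 8.31, 8.54 and 8.89 in WT NP, against 6.80, 7.49 and 7.28 in WT AF. It was above background on all 6 NP arrays and on 1 AF array, and differed by 2.06 log2 (SE 0.29; 4.17-fold) in TonEBP +/- discs and by 2.13 (SE 0.29; at least 2.80-fold) in WT discs. The matrix proteins Adamtsl1 and Adamtsl5 were called higher in NP too, though in WT discs neither passed on the values as deposited (adjusted p = 0.347 for each) and Adamtsl5 did not after quantile normalization (adjusted p = 0.459). Adamtsl1 had 8.08, 7.66 and 7.49 log2 in TonEBP +/- NP, against 6.71, 6.72 and 6.58 in TonEBP +/- AF, and 8.47, 7.25 and 7.49 in WT NP, against 7.71, 7.26 and 7.33 in WT AF. It was above background on all 6 NP arrays and on no AF array, with a difference of 1.76 log2 (at least 1.44-fold) in TonEBP +/- and 1.04 (at least 1.56-fold) in WT discs. Adamtsl5 was above background on all 12 arrays, with 9.04, 9.36 and 9.35 log2 in TonEBP +/- NP, against 8.28, 8.41 and 8.30 in TonEBP +/- AF, and 8.71, 9.20 and 9.04 in WT NP, against 8.48, 9.18 and 8.54 in WT AF. The TonEBP +/- tissues did not overlap and the WT tissues did. It was 1.61 log2 higher in NP of TonEBP +/- and 0.99 in NP of WT mice. Adamts10, a fibrillin-associated protease with 7.80, 7.41 and 8.21 log2 in WT NP, against 7.51, 7.72 and 7.89 in WT AF, was called in WT discs (0.84 log2 after centring). Adamtsl4, another fibrillin-binding protein, had 9.09, 9.11 and 8.66 log2 in TonEBP +/- NP, against 9.01, 9.12 and 8.69 in TonEBP +/- AF, and was called there (0.70 log2 after centring). The deposited signals of both overlapped between the tissues. Both of these calls were lost on the values as deposited and after quantile normalization. On the deposited values Adamts10 was instead called lower in NP of TonEBP +/- discs, and after quantile normalization Adamtsl4 was called lower in NP of WT discs. Their tissue differences thus depend on the scaling, and a dependence on genotype, tested as the interaction of genotype with tissue, was not called for either (adjusted p = 0.375 for Adamts10 and 0.51 for Adamtsl4).

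Both gelatinases and the collagenases Mmp13 and Mmp8 were called lower in NP of each genotype. Mmp13, the collagenase of hypertrophic cartilage and bone, had 4.60, 5.82 and 5.55 log2 in TonEBP +/- NP, against 15.29, 13.19 and 15.26 in TonEBP +/- AF, and 6.13, 5.45 and 4.87 in WT NP, against 11.66, 11.01 and 10.49 in WT AF. It was above background on every AF array and on no NP array. NP was lower by 8.57 log2 (SE 0.52; at least 105-fold) in TonEBP +/- and by 4.83 (SE 0.52; at least 8.56-fold) in WT discs. Mmp2, gelatinase A, had 4.43, 4.56 and 4.45 log2 in TonEBP +/- NP, against 9.38, 10.04 and 10.58 in TonEBP +/- AF, and 4.28, 5.36 and 4.37 in WT NP, against 8.83, 8.14 and 8.64 in WT AF. It was likewise above background on all AF arrays and no NP array, and was at least 4.39-fold lower in NP of TonEBP +/- and at least 1.50-fold lower in NP of WT mice. Adamts9, a versican-cutting protease and the closest relative of Adamts20, was placed the other way from it: 5.23, 5.62 and 5.47 log2 in TonEBP +/- NP, against 8.19, 8.62 and 8.75 in TonEBP +/- AF, and 5.54, 5.38 and 5.82 in WT NP, against 8.49, 8.33 and 8.45 in WT AF. It was lower in NP by at least 1.57-fold in TonEBP +/- and at least 1.38-fold in WT discs. Adamtsl3 had 6.49, 6.29 and 6.09 log2 in TonEBP +/- NP, against 7.43, 8.47 and 8.11 in TonEBP +/- AF, and 6.16, 6.92 and 6.00 in WT NP, against 8.78, 8.48 and 8.77 in WT AF, and was lower in NP by at least 1.09-fold and at least 1.65-fold. Mmp19, a secreted MMP, had 7.22, 7.17 and 7.29 log2 in TonEBP +/- NP, against 8.57, 8.97 and 8.99 in TonEBP +/- AF, and 7.10, 7.25 and 7.56 in WT NP, against 9.19, 8.51 and 8.73 in WT AF. The tissues did not overlap for either gene, and Mmp19 was 1.90-fold lower in NP of TonEBP +/- and 1.70-fold lower in NP of WT mice. Mmp14 had 6.71, 6.75 and 6.72 log2 in TonEBP +/- NP and 6.73, 5.42 and 6.48 in WT NP, below background on all 6 arrays. It was called lower in NP of TonEBP +/- discs (at least 2.96-fold) and not in WT discs (adjusted p = 0.114).

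Mmp8, Mmp9 and Mmp25, which neutrophils make and carry, were lower in NP in both genotypes. Mmp8 had 9.62, 8.02 and 10.26 log2 in TonEBP +/- NP, against 16.51, 16.01 and 16.73 in TonEBP +/- AF, and 12.16, 11.05 and 9.79 in WT NP, against 16.03, 14.57 and 14.99 in WT AF, a difference of -6.43 log2 (SE 0.58; 86.1-fold) in TonEBP +/- and -3.45 (SE 0.58; 11.0-fold) in WT discs. Mmp9, gelatinase B, had 7.53, 5.50 and 7.75 log2 in TonEBP +/- NP, against 15.21, 13.73 and 15.82 in TonEBP +/- AF, and 9.84, 8.71 and 7.69 in WT NP, against 14.21, 11.59 and 12.70 in WT AF, a difference of -7.30 log2 (SE 0.73; 158-fold) and -3.35 (SE 0.73; 10.2-fold). Mmp25, a membrane-anchored MMP of leukocytes, had 6.13, 5.69 and 6.43 log2 in TonEBP +/- NP and 7.14, 6.67 and 5.51 in WT NP, all at background. Against AF it was at least 8.37-fold lower in NP of TonEBP +/- and at least 3.50-fold lower in NP of WT mice. After quantile normalization the difference was -7.16 log2 in TonEBP +/- and -5.04 in WT discs for Mmp8, and -7.88 and -4.49 for Mmp9. No NP array of either genotype reached the lowest AF array for any of these 3 genes. Markers of neutrophils and their precursors (14 genes, none of them an MMP) moved with them: their mean level was 8.83 to 10.7 log2 in TonEBP +/- NP, against 16.5 to 17.3 in TonEBP +/- AF, and 11.2 to 12.7 in WT NP, against 15.6 to 16.0 in WT AF, and all 14 were called lower in NP in each genotype. Ngp and Lcn2 of this list were at the top of the signal range on every AF array, which caps the AF means. The part of these cells in the MMP signals was not tested.

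**Figure D2:**
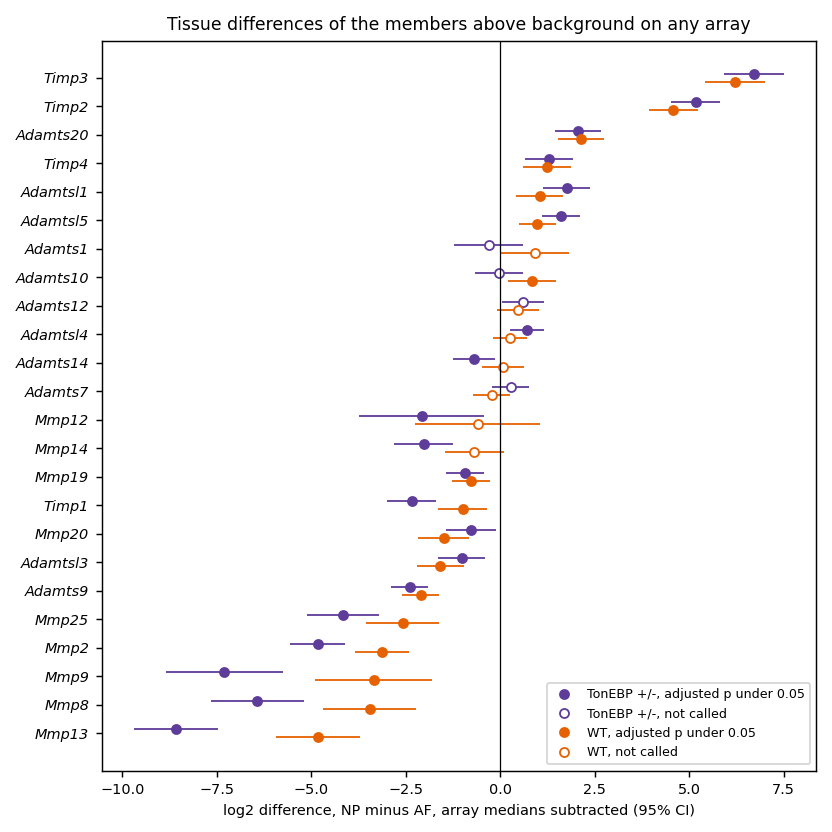
Difference NP minus AF in log2 with its 95% confidence interval (x axis), array medians subtracted, for the 24 genes above background on any array (y axis), in TonEBP +/- (purple, upper) and WT discs (orange, lower); filled points have an adjusted p under 0.05. Timp3 and Timp2 lie at 6.71 and 5.17 in TonEBP +/- discs, and Mmp13, Mmp8 and Mmp9 at the other end at -8.57, -6.43 and -7.30.

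TonEBP +/- and WT mice were next compared within the AF, the comparison that asks what the loss of 1 copy does in the outer ring. Mmp13 was 11.5-fold higher in TonEBP +/- AF, Mmp2 was 2.76-fold higher and Mmp14, the membrane-bound MMP that activates Mmp2, at least 3.03-fold higher. Timp1, Mmp16 and Adamts5 were also called higher at signals at or near background. Thus 6 of 48 genes were called higher (12.5%, against 2.76% of all clusters) and 0 lower (against 3.31%). Calls in either direction were made for 6.07% of all clusters. At an unadjusted p under 0.05 there were 18 genes, against 23.2% of all clusters. The median difference of the family was 0.02 log2, against -0.04 for all clusters.

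Mmp13 had 15.29, 13.19 and 15.26 log2 in TonEBP +/- AF, against 11.66, 11.01 and 10.49 in WT AF. All 3 TonEBP +/- arrays lay above all 3 WT arrays, array 2 being the lowest of its group. The difference was 3.53 log2 (SE 0.50, 95% confidence interval 2.46 to 4.60, adjusted p = 0.00528). The SE and p-value of each gene rest on 1 spread shared by AF and NP arrays. For Mmp13 the SD was 1.21 log2 in TonEBP +/- AF and 0.59 in WT AF, against 0.64 and 0.63 in TonEBP +/- and WT NP. Mmp13 passed with each of the 12 arrays left out in turn (3.17 to 4.22 log2). Mmp14 had 9.39, 8.73 and 10.19 log2 in TonEBP +/- AF, against 7.67, 7.59 and 7.64 in WT AF, above background on 3 of 3 arrays and on 0 of 3 (difference 1.80, SE 0.35, adjusted p = 0.0162). Mmp2 had 9.38, 10.04 and 10.58 log2 in TonEBP +/- AF, against 8.83, 8.14 and 8.64 in WT AF, all above background (1.46, SE 0.33, adjusted p = 0.0236). For both genes the 2 groups of arrays did not overlap.

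The other 3 calls rest on dim signals, so no fold is given. Timp1 had 7.04, 7.75 and 8.04 log2 in TonEBP +/- AF, against 5.64, 6.56 and 5.82 in WT AF, and 1 of these 6 signals was above background (difference 1.60, SE 0.30, adjusted p = 0.0162). Mmp16, a membrane-bound MMP, had 7.19, 7.61 and 7.43 log2 in TonEBP +/- AF, against 6.58, 5.78 and 6.25 in WT AF, none above background (1.21, SE 0.26, adjusted p = 0.0207). Adamts5, the main aggrecanase of mouse cartilage, had 6.09, 6.36 and 7.53 log2 in TonEBP +/- AF, against 5.52, 5.76 and 5.41 in WT AF, none above background (1.10, SE 0.31, adjusted p = 0.0481). The groups did not overlap for any of them, though for Adamts5 TonEBP +/- array 3 stood well above the other 2. Among the 48 genes, 8 (16.7%) had all 3 TonEBP +/- arrays above all WT arrays, namely these 6, Adamts14 and Mmp3, against 10% of clusters.

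**Figure D3:**
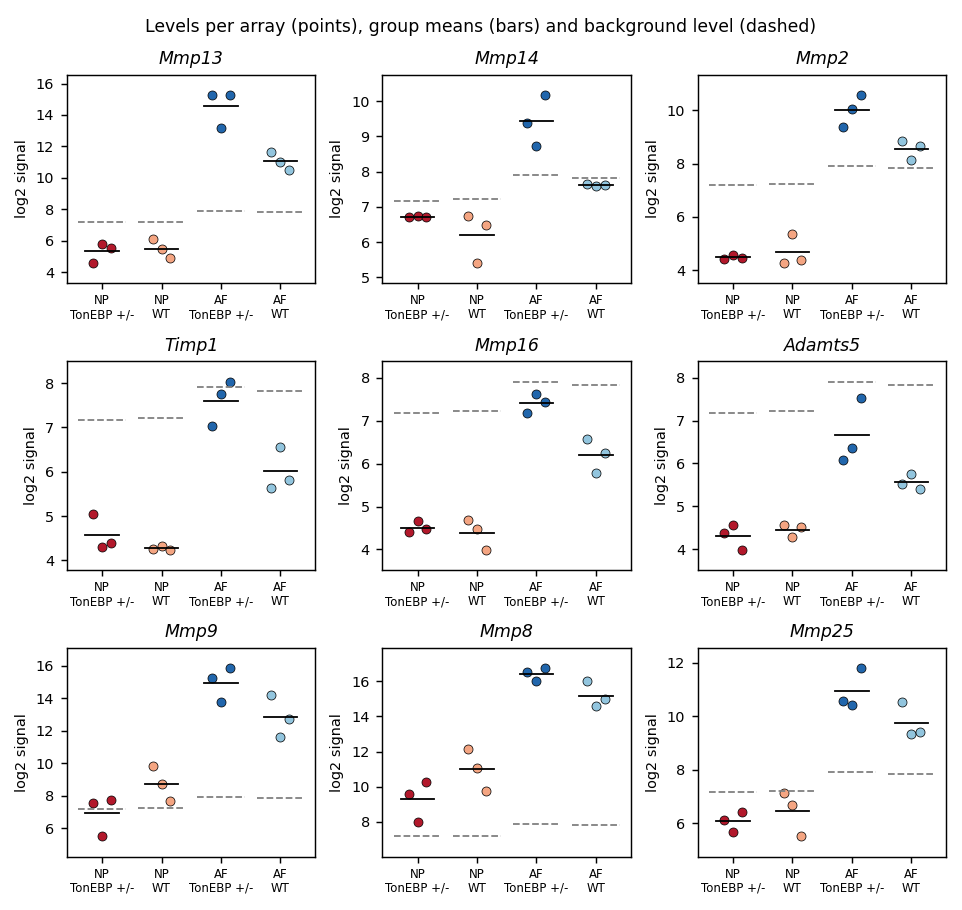
Deposited log2 signals (y axis, scaled per gene) of 9 genes in the 4 groups (x axis): points are arrays, solid lines group means, and dashed lines the mean background level of the group. The 3 TonEBP +/- AF arrays lie above the 3 WT AF arrays for Mmp13, Mmp14, Mmp2, Timp1, Mmp16 and Adamts5, but groups overlap for Mmp9, Mmp8 and Mmp25.

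Single arrays decided several of these calls. Without TonEBP +/- AF array 3, Mmp13 was the 1 gene of the 48 that was called, as were 0.365% of all clusters. Without WT AF array 2, Mmp13 and Timp1 were called, and 0.869% of all clusters. Without TonEBP +/- AF array 2 there were 13 calls, the 6 and Adamts10, Adamtsl2, Adamtsl3, Mmp9, Mmp21, Mmp25 and Mmp28, of which 4 were lower in TonEBP +/- AF, and the share of all clusters was 18.1%. The calls also rest on the NP arrays, which enter the shared spread and its degrees of freedom. With the 6 AF arrays fitted alone none was called (adjusted p = 0.0961 for Mmp13 and 0.102 for Mmp14), where 0.0135% of all clusters were. Adamts5 was called with 1 of the 12 arrays left out and not with the other 11.

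None of Mmp8, Mmp9 and Mmp25 passed in AF. Mmp9 had 15.21, 13.73 and 15.82 log2 in TonEBP +/- AF, against 14.21, 11.59 and 12.70 in WT AF (difference 2.09, SE 0.71, adjusted p = 0.0888). Mmp25 had 10.58, 10.43 and 11.79 log2 in TonEBP +/- AF, against 10.52, 9.35 and 9.42 in WT AF (1.17, SE 0.44, adjusted p = 0.116). For both, WT array 1 lay within the TonEBP +/- range, and the same was so for Mmp8 (1.22, SE 0.57, adjusted p = 0.209). The macrophage elastase Mmp12, chosen after its values were seen, had 6.51, 6.89 and 10.83 log2 in TonEBP +/- AF, against 6.05, 7.18 and 6.04 in WT AF. The signal of TonEBP +/- array 3 alone was above background and the gene was not called (adjusted p = 0.202). Array 3 also had the highest mean of the 11 macrophage markers measured (10.1 log2, against 9.18 and 9.49 on the other TonEBP +/- AF arrays and 8.76 to 8.96 on WT AF arrays). The link between them was not tested.

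The ADAMTS-like genes, also chosen after their values were seen, all lay lower in TonEBP +/- AF without passing the test. For each of the 5, all 3 TonEBP +/- arrays were below all 3 WT arrays, as they were for Mmp21 in the rest of the family. This made 6 of the 48 genes, about the share of all clusters so placed (12.3%). Adamtsl4 had 9.01, 9.12 and 8.69 log2 in TonEBP +/- AF, against 9.53, 9.42 and 9.41 in WT AF (-0.52, SE 0.22, adjusted p = 0.168). Adamtsl3 had 7.43, 8.47 and 8.11 log2 in TonEBP +/- AF, against 8.78, 8.48 and 8.77 in WT AF (-0.68, SE 0.29, adjusted p = 0.175), and Adamtsl5 had 8.28, 8.41 and 8.30 log2, against 8.48, 9.18 and 8.54 (-0.40, SE 0.24, adjusted p = 0.336). Adamtsl1 (-0.76) and Adamtsl2 (-0.62) were at background on all AF arrays.

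Of the other detected genes none was called by genotype in AF. Timp2 had 12.41, 11.41 and 12.64 log2 in TonEBP +/- AF, against 12.47, 12.52 and 13.07 in WT AF, and Timp3 9.69, 8.36 and 9.45, against 8.73, 9.60 and 10.18. Their groups overlapped and neither was called. Adamts1 had 9.71, 8.54 and 9.38 log2 in TonEBP +/- AF, against 7.85, 8.61 and 8.46 in WT AF (0.91, SE 0.42, adjusted p = 0.203), with 1 TonEBP +/- array inside the WT range. Adamts7 and Adamts12, which cut the cartilage protein COMP, Adamts9, Adamts20, Mmp19 and Timp4 were not called either.

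Markers of other cells moved with the genotype in AF, where 2.76% of all clusters were called higher and 3.31% lower. Of 9 osteoblast and hypertrophic chondrocyte markers measured, 6 were called higher in TonEBP +/- AF (Ibsp, Bglap, Phex, Dmp1, Alpl and Mepe). The mean level of the 9 was 10.6, 9.79 and 10.5 log2 in TonEBP +/- AF, against 8.99, 8.43 and 9.43 in WT AF. Sp7, Ifitm5 and Col10a1 were not called. Col10a1 overlapped between the genotypes, with 10.46, 8.96 and 9.49 log2 in TonEBP +/- AF, against 8.25, 10.70 and 11.30 in WT AF. TonEBP +/- array 2, the lowest of its group for this list, was also the lowest for Mmp13. In WT AF the 2 did not run together: array 3 had the highest mean of this list and the lowest Mmp13 signal (10.49 log2). In NP the list averaged 5.07 to 5.34 log2 in TonEBP +/- and 5.26 to 5.33 in WT discs, with at most 1 of 9 markers above background, and Mmp13 was above it on no NP array. Of 8 osteoclast markers 3 were called higher (Acp5, Ctsk and Atp6v0d2), with 4 of the 8 above background on no array and a mean of 9.41 to 10.6 log2 in TonEBP +/- AF, against 7.36 to 8.91 in WT AF. Of 14 neutrophil markers 4 were called higher, with a mean of 16.5 to 17.3 log2 in TonEBP +/- AF, against 15.6 to 16.0 in WT AF. Ngp and Lcn2 of this list were at the top of the signal range on every AF array, so a difference between the genotypes could not show for them. Of 11 macrophage markers 2 were called higher. Among 8 chondrocyte markers measured, 2 were called lower (Acan and Sox9) and 0 higher. The list mean overlapped between the genotypes, at 12.4 to 13.5 log2 in TonEBP +/- AF, against 12.7 to 14.4 in WT AF. Cytl1 of this list was at the top of the signal range on WT AF arrays 2 and 3 (19.91 and 19.88 log2). The part of these cells in the calls of Mmp13, Mmp14, Mmp2 and the rest was not tested.

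**Figure D4:**
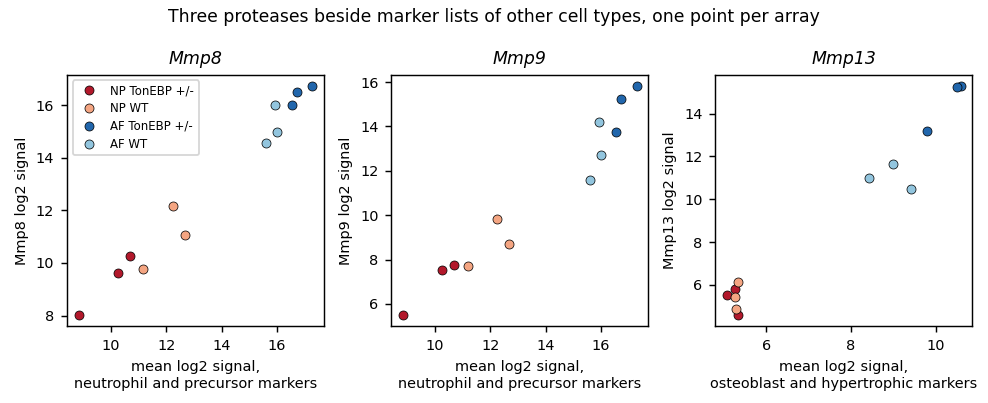
Log2 signal of Mmp8, Mmp9 and Mmp13 (y axes) against the mean log2 signal of neutrophil and precursor markers (left and middle) or osteoblast and hypertrophic chondrocyte markers (right; x axes), 1 point per array and colour per group. TonEBP +/- AF arrays sit toward the upper right of each panel, and for Mmp8 and Mmp9 the NP arrays of TonEBP +/- mice reach lower on both axes than those of WT mice.

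In the NP, no gene of the family was called between TonEBP +/- and WT mice by limma, where 0.113% of all clusters were. At an unadjusted p under 0.05 there were 2, against 3.72% of all clusters. These were Mmp8 and Mmp9, both lower in TonEBP +/- NP. Mmp8 had 9.62, 8.02 and 10.26 log2 in TonEBP +/- NP, against 12.16, 11.05 and 9.79 in WT NP (-1.70, SE 0.57, adjusted p = 0.795). Mmp9 had 7.53, 5.50 and 7.75 log2 in TonEBP +/- NP, against 9.84, 8.71 and 7.69 in WT NP (-1.82, SE 0.71, adjusted p = 1). The groups overlapped for both, since WT array 3 fell within the TonEBP +/- range. The neutrophil markers were also lower in TonEBP +/- NP, with a mean of 10.2, 8.83 and 10.7 log2 in TonEBP +/- NP, against 12.2, 12.7 and 11.2 in WT NP, and 3 of 14 (Mpo, Elane and Ctsg) were called lower. Markers of other blood cells were lower too: of 7 erythroid markers 2 were called (Slc4a1 and Ermap), with a mean of 6.63 to 6.77 log2 in TonEBP +/- NP, against 7.74 to 8.82 in WT NP, and of 11 macrophage markers 1 was called (Lyz2). The part of blood cells in the Mmp8 and Mmp9 values was not tested.

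The next smallest p-values in NP belonged to Adamts16 (5.20, 5.22 and 4.93 log2 in TonEBP +/- NP, against 4.73, 4.74 and 4.75 in WT NP), Adamts3 (4.33, 4.28 and 3.82, against 4.37, 4.70 and 4.53) and Mmp1a (4.64, 4.86 and 4.72, against 5.97, 5.25 and 4.78). All 3 were below background on all 12 arrays and their adjusted p was 1. The arrays of the 2 genotypes were apart for 3 genes, Adamts16 and Adamts12 with TonEBP +/- above and Adamts3 with it below, where 5.34% and 5.93% of clusters were so placed. Timp2 and Timp3, differed by 0.10 log2 (95% confidence interval -0.51 to 0.71) and 0.21 (-0.55 to 0.97) between TonEBP +/- and WT NP. These intervals bound the change at less than 1 log2 in either direction.

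**Figure D5:**
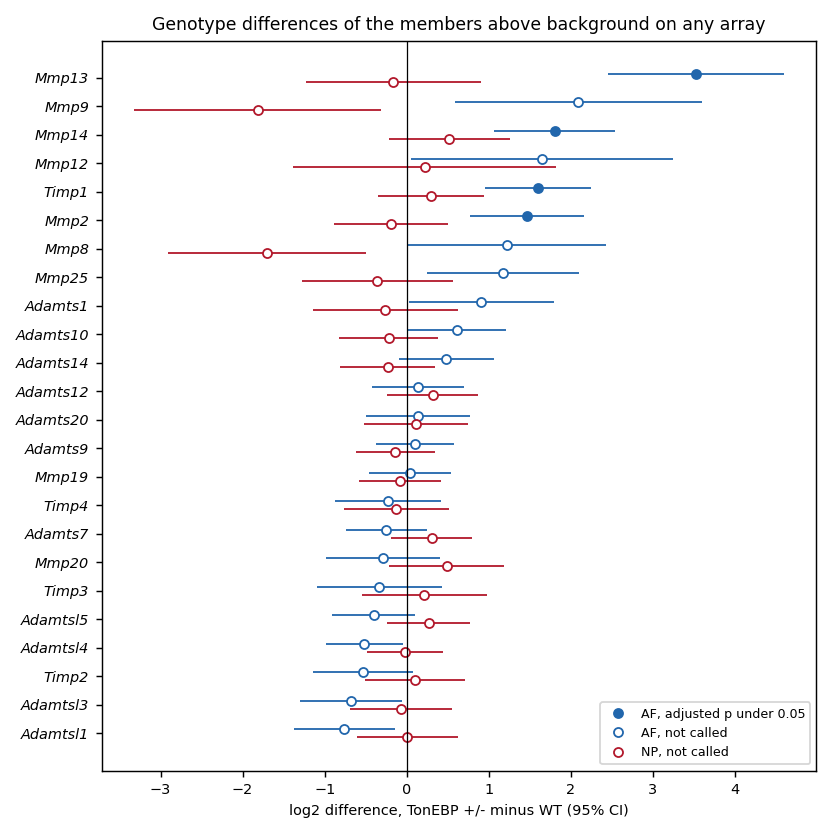
Difference TonEBP +/- minus WT in log2 with its 95% confidence interval (x axis) for the 24 genes above background on any array (y axis), in AF (blue, upper) and NP (red, lower); filled points have an adjusted p under 0.05. In AF, Mmp13 lies at 3.53, Mmp14 at 1.80, Timp1 at 1.60 and Mmp2 at 1.46, and no NP point is filled.

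Whether the effect of genotype differed between the tissues was tested by the interaction, the TonEBP +/- minus WT difference in AF minus that in NP. It was called for Mmp13 (2.08% of the 48 genes, against 0.887% of all clusters), at 3.69 log2 (SE 0.71, adjusted p = 0.0242), with 3.53 in AF and -0.16 in NP, where its signals were below background in both genotypes. At an unadjusted p under 0.05 there were 10 genes, against 14% of all clusters. Mmp9 had 3.91 log2 (SE 1.00, adjusted p = 0.0847), with 2.09 in AF and -1.82 in NP, and Mmp8 2.92 (SE 0.80, adjusted p = 0.104), with 1.22 in AF and -1.70 in NP. The differences thus had opposite signs in the 2 tissues for these 2 genes without passing. For Mmp2 the interaction was 1.65 log2 (adjusted p = 0.109), for Timp1 1.30 (0.166), for Mmp16 1.08 (0.171), for Adamts5 1.24 (0.196) and for Mmp14 1.29 (0.233), so a different effect of genotype in AF and NP was not shown for the other 5 genes called in AF. The call of Mmp13 held with 4 of 12 arrays left out in turn, and with the other 8 its adjusted p was 0.0546 to 0.0766. Without TonEBP +/- AF array 2, Mmp8, Mmp9 and Mmp14 were called beside it, and without WT NP array 3 Mmp8 and Mmp9 were.

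The genes that act on this family were read from lists chosen with it. Of 24 measured genes that activate, inhibit or clear the proteases, 5 were called higher and 3 lower in TonEBP +/- AF. Of all clusters 2.76% were called higher and 3.31% lower, which holds for the next lists too. The higher ones were Cd44, a receptor that docks Mmp9 (1.96 log2, adjusted p = 0.0177), the procollagen protease Bmp1, which was not above background in WT AF, and the cathepsins Ctsk (3.62), Ctsb (1.24) and Ctss (1.56), with Ctsk at 12.92, 12.95 and 14.78 log2 in TonEBP +/- AF, against 11.88, 7.18 and 10.74 in WT AF. The lower ones were Sdc4, a syndecan that promotes aggrecanase activity (-1.67), fibronectin Fn1 (-1.57) and Pcolce2, an enhancer of procollagen processing (-1.97). The median of the list was 0.01 log2. Of 20 measured substrates, 3 were called higher in TonEBP +/- AF, the collagens Col1a1 (4.18) and Col1a2 (3.70) and lumican, Lum (1.62), and 3 lower, aggrecan, Acan (-2.03), versican, Vcan (-1.58) and fibromodulin, Fmod (-2.11). Acan had 14.76, 14.47 and 14.50 log2 in TonEBP +/- AF, against 16.44, 16.69 and 16.71 in WT AF (adjusted p = 0.000331), with no overlap. Of 18 measured transcription and signal regulators, Ets1, a factor that binds MMP promoters, was called (0.88 higher, adjusted p = 0.0468). Between the genotypes in NP, limma called 0 genes of the 3 lists, and 1 of 24, 0 of 20 and 1 of 18 genes had an unadjusted p under 0.05.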

How the data were processed

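RNA of AF and NP tissue was measured on 12 Clariom S Mouse arrays, 3 in each of 4 groups set by the labels' genotype and tissue. The authors deposited log2 signals per probe set, made with RMA in Affymetrix Expression Console per the submitters' processing notes, which give no version or setting of either. Which arrays were normalized together is not given in the sources used here, and the tissues differ in array median and spread. The number of arrays limits the precision: the fit has 8 residual degrees of freedom and the median residual SD was 0.362 log2 in AF and 0.263 in NP.

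From the 28846 probe sets, 6640 controls were left out and 22206 transcript clusters were tested, of which 19572 have 1 gene symbol and 2634 none. Differences came from limma 3.58.1 (R 4.3.3): 1 linear model of the 4 groups over all 12 arrays, moderated by empirical Bayes, with Benjamini-Hochberg adjustment over all 22206 clusters and a threshold of 0.05. Genotype and interaction used the deposited values, and tissue comparisons used values with each array's median subtracted. The model was tested on simulated data. Arrays were numbered in accession order and not paired. P-values measure the spread between these samples, shared over AF and NP arrays. Signals of 23 background probe sets on each array gave the 95th percentile that marks a gene as above background.

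The 48 members follow from their symbols. Values on every array are given for members called by genotype or in the interaction, for the members with the smallest p-values up to 5 where fewer were called, for the 8 largest tissue differences each way among called members above background, and for the TIMPs. The members and lists were chosen with earlier results of these data known. Promoter letters were searched in RefSeq's GRCm38.p6 sequences with Python 3.11.15. The alternatives were other scalings, an intensity trend, array weights, a filter on dim clusters, a fit within 1 tissue, and leaving out each array.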

Additional observations from a re-analysis of the deposited data

Results flagged for a closer look

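Mmp13 was called for a different genotype effect in AF and NP by a test of the difference itself. The call held with 4 of 12 arrays left out in turn and was lost with the others. The TonEBP +/- minus WT difference was 3.53 log2 in AF and -0.16 in NP, a difference of 3.69 log2 (SE 0.71, limma adjusted p = 0.0242). On NP arrays Mmp13 was below background in both genotypes, so the NP value is a difference between background signals. All 3 TonEBP +/- arrays lay above all 3 WT arrays in AF.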

How the results depend on the processing

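In AF, 6 genes were called by genotype under subtracted array medians, quantile normalization and an intensity trend, all 6 the same genes. Of all clusters 5.75%, 8.93% and 5.6% were called, against 6.07% in the main setting. Array weights gave 9 calls (Adamts5 lost, Mmp9, Mmp21, Adamtsl2 and Adamtsl3 gained), where calls over all clusters rose to 12.7%. With dim clusters left out there were 3 (Mmp13, Mmp14 and Mmp2), since Timp1, Mmp16 and Adamts5 were no longer tested. Of the 11508 clusters left, 13.6% were called. With AF arrays alone there were 0, at 3 calls among all clusters. Leaving out each array gave 1 to 13 calls, and 0.365% to 18.1% of all clusters. For the interaction, array weights gave 3 calls (Mmp13, Mmp8 and Mmp9), where 3.94% of all clusters were called, against 0.887% in the main setting. Leaving out each array gave 0 to 4 (0.0991% to 5.94% of all clusters), and the other settings gave 1 (0.73% to 2.29% of the clusters tested). In NP, 0 genes were called by genotype under each alternative run. For the tissues, leaving out dim clusters gave 16 calls in TonEBP +/- discs and 15 in WT discs, since fewer members were then tested. Of the clusters left, 70.9% and 80.2% were called. Leaving out each array gave 25 to 29 and 22 to 28 calls, and 48.5% to 61.2% and 58.6% to 68.1% of all clusters. On the values as deposited the counts were 43 and 37, where 74.3% and 78.3% of all clusters were called. Timp2, Timp3, Mmp13, Mmp8, Mmp9, Mmp2, Mmp25, Adamts9 and Adamts20 kept their tissue calls in both genotypes under each alternative run, and no called difference of a member changed direction. Tissue differences that were not called could turn with the scaling, as for Adamtsl4 and Adamts12 in WT discs. Taking the dimmer cluster of a gene changed nothing, as each gene has 1. No paired analysis was possible because the replicate numbers follow accession order and the labels tie no samples together. Signals below the background cutoff limit 24 of the 48 genes to a bound. The cause of the changes with single arrays was not tested.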

Other observations

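Partners of the proteases were read between the compartments after array medians were subtracted. Of 24 genes that activate, inhibit or clear them, 7 were called higher and 9 lower in NP of TonEBP +/- mice, where 30.9% of all clusters were higher and 25.3% lower. In WT mice it was 10 higher and 9 lower, where 33.7% of all clusters were higher and 31.3% lower. The receptor Lrp1, which takes up MMPs and TIMPs from the matrix, was 4.44 log2 higher in NP of TonEBP +/- and 3.80 in NP of WT mice. Bsg, an inducer of MMPs, was 3.30 and 3.17 log2 higher, Sdc4 was 5.06 and 3.02 higher, and the procollagen processing enhancer Pcolce was 3.59 and 4.17 higher. Cd44 was lower in NP (-3.89 log2 in TonEBP +/- and -1.52 in WT discs). Pcsk6, a convertase of precursor proteins, was also called lower and was above background on 6 AF arrays and 0 NP arrays.

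Among 20 substrates, 5 were higher and 13 lower in NP of TonEBP +/- mice, and 3 higher and 13 lower in NP of WT mice, beside the same shares of all clusters. Hapln1, which links aggrecan to hyaluronan, was 4.05 and 2.77 log2 higher and Fmod 6.48 and 4.25 higher. The fibre-associated Comp (-6.77 and -7.64 log2) and Bgn (-4.31 and -4.61) and the versican core Vcan (-2.99 and -4.50) were lower. Dcn and Prg4 were called lower as well, but they reached the top of the signal range on WT AF arrays and no size is given. Of 18 regulators, 8 were higher and 6 lower in NP of TonEBP +/- mice, and 6 of each in NP of WT mice. Hif1a, the oxygen-sensing factor of the NP, was 2.54 and 2.78 log2 higher and Tgfbr2 3.67 and 3.28 higher, while the cytokines Il1b (-4.79 and -3.87) and Tgfb1 (-4.21 and -2.83) were lower. The neutrophil markers were lower in NP as well, with means of 8.83 to 10.7 log2 in TonEBP +/- NP, against 16.5 to 17.3 in TonEBP +/- AF, and their part in these values was not tested.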
